A study of Saccharomyces cerevisiae with 6 samples.

Results

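The proteasome subunit genes of the budding yeast Saccharomyces cerevisiae were followed across 3 strain comparisons made without iron. They were taken by gene symbol, as SCL1 or a name of PRE, PUP, RPN or RPT with a number, which matched 34 of the 5490 gene symbols on the membranes, each on 1 spot. Of these, 14 encode the core particle (SCL1, PRE and PUP genes) and 19 carry names of the regulatory particle (RPN and RPT genes). The remaining gene, RPN4, encodes a transcription factor and is given apart. RPN14, counted with the 19, encodes an assembly chaperone rather than a subunit of the finished particle. The strains were CM3260 (labelled wt), Y18 (labelled aft1) and Y18aft2delta (labelled aft1aft2), so the AFT2 deletion was studied only on top of the aft1 mutation. All were described as minus iron, and no culture with iron is among these samples. Each of the 3 pairs of strains was compared in experiments 1 and 2, which makes 6 samples.

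The proteasome degrades proteins that have been tagged with ubiquitin. Its core particle is a barrel of alpha and beta rings, with the protease sites inside the beta rings. The regulatory particle caps the barrel. Its base holds a ring of Rpt ATPases that unfold substrates and feed them into the core, and its lid holds Rpn11, which removes the ubiquitin chain. In yeast the subunit genes share a promoter element bound by Rpn4, a short-lived activator that the proteasome itself degrades, so that low proteasome activity lets Rpn4 accumulate. Aft1 and Aft2 activate genes of iron uptake when iron is scarce.

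Values are log ratios of a strain pair at a spot, taken as log2 and turned to mutant minus reference, with the median of all 6084 spots of each sample set to 0. A value of 1 is then a 2-fold higher signal relative to the typical spot, if the base is 2. The order of the strains in the deposited ratio is likely rather than stated, and the other order would give every value the opposite sign. Errors are standard errors (SE) of limma's fit over all spots, with n = 2 hybridisations per strain, and a gene passed the test at a Benjamini-Hochberg adjusted p under 0.05 over all spots. No label ties the 2 experiments to different cultures, and the p-values may therefore reflect only technical spread between hybridisations. The 3 ratios of an experiment came from the same 3 hybridisations. Thus aft1 against wt and aft1aft2 against aft1 share the aft1 hybridisations, and a gene high on those is pushed up in the one and down in the other. Likewise both comparisons with wt share the wt hybridisations, and a gene low on those is pushed up in both.

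For the subunits the SE in aft1 against wt ran from 0.23 to 0.48 with a median of 0.26. The unadjusted 95% intervals reached from 0.55 to 1.17 to each side of the mean by gene, with a median of 0.63. Passing the adjusted test took more than that, and a mean as far from 0 as 1.52, that of RPN13 in aft1aft2 against wt, did not pass. The spot of the mutated gene AFT1 stood at 0.03 ± 0.25 in aft1 against wt, and that of AFT2 at -0.40 and 1.96 in experiments 1 and 2 of aft1aft2 against wt. Neither spot shows a loss of its transcript, so the names aft1 and aft1aft2 stand for hybridisations as the labels give them.

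None of the 33 subunit genes passed the test in any comparison. Of all spots, 1.46% passed for aft1 and 4.44% for aft1aft2 against wt, and 2.83% passed between the mutants. The smallest adjusted p was 0.12 for RPT1 in aft1 against wt, 0.059 for RPN13 in aft1aft2 against wt and 0.082 for RPN2 in aft1aft2 against aft1. The regulatory particle had its median above the typical spot in aft1 against wt. In aft1aft2 against aft1 the medians of its base ATPases and of its other base subunits were below the lower quartile of all spots in both experiments. Those of the lid and of both rings of the core were between the quartiles, with the beta ring at -0.11 and -0.38.

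**Figure D1:**
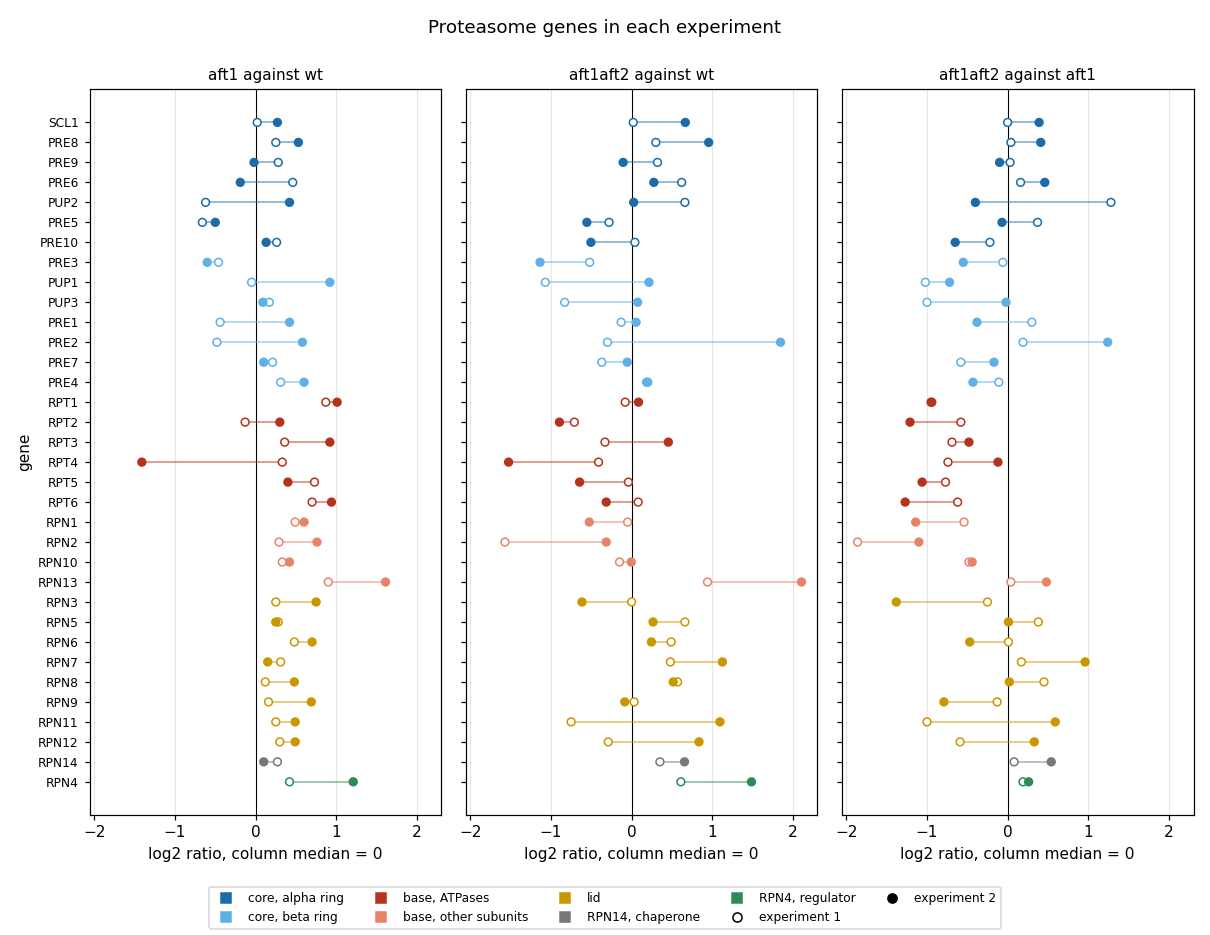
Log2 ratio of each proteasome gene (rows) in the 3 comparisons (panels), with an open point for experiment 1, a filled point for experiment 2 and a line joining them; colours mark the part of the complex. In aft1 against wt 17 of the 19 regulatory genes lie right of 0 in both experiments, and in aft1aft2 against aft1 all 6 RPT genes lie left of 0 in both.

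In aft1 against wt the regulatory particle had a median of 0.31 in experiment 1 and 0.49 in experiment 2. The core had 0.095 and 0.20. Of the 19 regulatory genes 17 were above 0 in both experiments and 0 were below 0 in both, where 32.3% of all spots were above and 32.5% below. Of the 14 core genes 6 were above and 2 below in both. With the values as deposited, before the medians were set to 0, 27 of the 33 genes were above 0 in both experiments, against 54.8% of all spots. The core lay lower than the regulatory particle by 0.215 in experiment 1 and 0.29 in experiment 2. The ranges of the 2 parts overlapped in both experiments. At an unadjusted p under 0.05 stood 3 regulatory genes as higher, RPN13, RPT1 and RPT6, and 0 genes as lower, against 8.07% and 7.36% of all spots. The median over all 33 genes was 0.30, and 0.175 when wt replicate 2 was left out.

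RPN13, whose product is a ubiquitin receptor docked on Rpn2, had the highest value of the 33 genes in this comparison. It was 0.90 in experiment 1 and 1.61 in experiment 2, a mean of 1.26 ± 0.33 (SE, n = 2; limma adjusted p = 0.138). Both experiments were on the high side, and they differed from each other by more than the SE. Without wt replicate 2 the mean was 0.789. RPT1, an ATPase of the base ring, was 0.87 and 1.01, a mean of 0.94 ± 0.23 (limma adjusted p = 0.12), or 1.92-fold. The ATPase gene RPT6 was 0.70 and 0.94 (mean 0.82 ± 0.26). RPT3 and RPT5, of the same ring, had means of 0.64 ± 0.28 and 0.57 ± 0.26, with both experiments above 0. RPT2 was -0.13 and 0.30 and did not keep a sign.

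RPT4, the remaining ATPase gene, was the lowest regulatory gene and the exception of the ring. It was 0.33 in experiment 1 and -1.41 in experiment 2, a mean of -0.54 ± 0.42 that rests on experiment 2. Of the other base subunits, RPN13 stood well above the rest, and RPN1, RPN2 and RPN10 were close together. The scaffold genes RPN1 and RPN2 had means of 0.55 ± 0.26 and 0.53 ± 0.34, and RPN10, for another ubiquitin receptor, 0.38 ± 0.23.

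The 8 lid genes formed the tightest group here. All 8 were above 0 in both experiments, and their means ran only from 0.23 for RPN7 to 0.59 for RPN6, with an SD of 0.12, where the means of all spots had an SD of 0.55. RPN11, the gene of the deubiquitinating enzyme, was 0.25 and 0.49, and its partner RPN8 was 0.12 and 0.48. RPN3, RPN5, RPN9 and RPN12, for structural lid subunits, had means of 0.50, 0.27, 0.43 and 0.40. The chaperone gene RPN14 was 0.27 and 0.10. No single lid gene had an adjusted p below 0.323 in limma's fit.

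The core genes scattered around a lower centre. In the alpha ring, SCL1, PRE6, PRE8, PRE9 and PRE10 had means from 0.13 to 0.39. PUP2, of the same ring, was -0.62 and 0.42, so its experiments disagreed in sign. PRE5, also of the alpha ring, was the lowest core gene at -0.66 and -0.50 (mean -0.58 ± 0.24; limma adjusted p = 0.33). In the beta ring PRE4 was the highest core gene at 0.31 and 0.60 (mean 0.46 ± 0.24).

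The 3 genes for the beta subunits that carry the protease sites did not move together in aft1 against wt. PRE3, for the caspase-like site, was -0.46 and -0.60 (mean -0.53 ± 0.26). PUP1, for the trypsin-like site, was -0.05 and 0.92 (mean 0.44 ± 0.35). PRE2, for the chymotrypsin-like site, was -0.48 and 0.58 (mean 0.05 ± 0.48). Only PRE3 kept its sign between the experiments. The beta subunits without such a site, PRE1, PRE4, PRE7 and PUP3, had means of -0.01, 0.46, 0.16 and 0.13.

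In aft1aft2 against wt the subunit genes lay on both sides of the typical spot, with no net shift of the complex. The median over the 33 genes was 0.00 (-0.04 in experiment 1 and 0.08 in experiment 2). In both experiments 11 genes were above 0 and 9 below, against 30.7% and 30.5% of all spots. With the values as deposited 25 genes were above 0 in both, against 65.7% of all spots, and the median was 0.515 where that of all spots was 0.539. The core and the regulatory particle had nearly the same medians, with the core lower by 0.015 and 0.02 in the experiments. The difference of the medians of the fitted means was 0.03, of the opposite sign. Within the parts the groups differed. The base ATPases had medians of -0.205 and -0.48 and the other base subunits -0.10 and -0.16, while the lid was above 0 in both experiments. The alpha ring had 0.30 and 0.025 and the beta ring -0.37 and 0.075, an order that did not hold in experiment 2. At an unadjusted p under 0.05, 2 genes were higher (RPN7 and RPN13) and 3 lower (PRE3, RPT2 and RPN2), against 9.24% and 12.2% of all spots.

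RPN13 was the highest gene here too, but both comparisons with wt share the wt hybridisations and are not separate observations. It was 0.94 in experiment 1 and 2.10 in experiment 2, a mean of 1.52 ± 0.33 or 2.87-fold (limma adjusted p = 0.059). The 95% interval of this mean ran from 0.73 to 2.31. RPN13 passed the test with columns scaled (limma adjusted p = 0.0399), with levels quantile normalised (0.0494) and with no replicate block (0.0252). The last of these fits counts 3 rather than 2 residual degrees of freedom. RPN13 did not pass without centring or with the comparison's own ratios (limma adjusted p = 0.0702 and 0.0688). Its mean was 1.99 without wt replicate 1 and 1.05 without wt replicate 2. It was 1.92 without aft1aft2 replicate 1 and 1.12 without aft1aft2 replicate 2. RPN7, a lid gene, was 0.48 and 1.12 (mean 0.80 ± 0.28), next below RPN13 in the regulatory particle.

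At the low end, RPT4 was -0.41 and -1.52 (mean -0.97 ± 0.42) and RPN2 was -1.57 and -0.32 (mean -0.95 ± 0.34). Both genes were low in both experiments, with the larger value in a different experiment for each. RPT2 was -0.71 and -0.90 (mean -0.80 ± 0.26), close in both. RPT1, RPT3 and RPT6, which had stood high in aft1 against wt, had means of 0.00, 0.06 and -0.12 here, and RPT5 had -0.34. The scaffold gene RPN1 was -0.29 ± 0.26 and the receptor gene RPN10 -0.08 ± 0.23.

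The lid had a median of 0.26 in experiment 1 and 0.39 in experiment 2. RPN5, RPN6 and RPN8 had means of 0.46, 0.36 and 0.54 with both experiments above 0, and RPN14 was 0.35 and 0.66. RPN3 and RPN9 had means of -0.31 and -0.03. RPN11 was -0.75 and 1.10, and RPN12 was -0.29 and 0.84, so neither kept a sign.

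In the core PRE3 was the lowest gene at -0.52 and -1.14 (mean -0.83 ± 0.26; limma adjusted p = 0.145). PRE2 had the highest mean, 0.77 ± 0.48, but was -0.30 in experiment 1 and 1.84 in experiment 2. PUP1 was -1.07 and 0.22. PRE8, of the alpha ring, was 0.30 and 0.96, and PRE6 of the same ring was 0.62 and 0.28. PRE5 was -0.28 and -0.56, low in both experiments as in aft1 against wt, a comparison that shares the wt hybridisations. The remaining core genes PRE1, PRE4, PRE7, PRE9, PRE10, PUP2, PUP3 and SCL1 had means between -0.38 and 0.34.

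**Figure D2:**
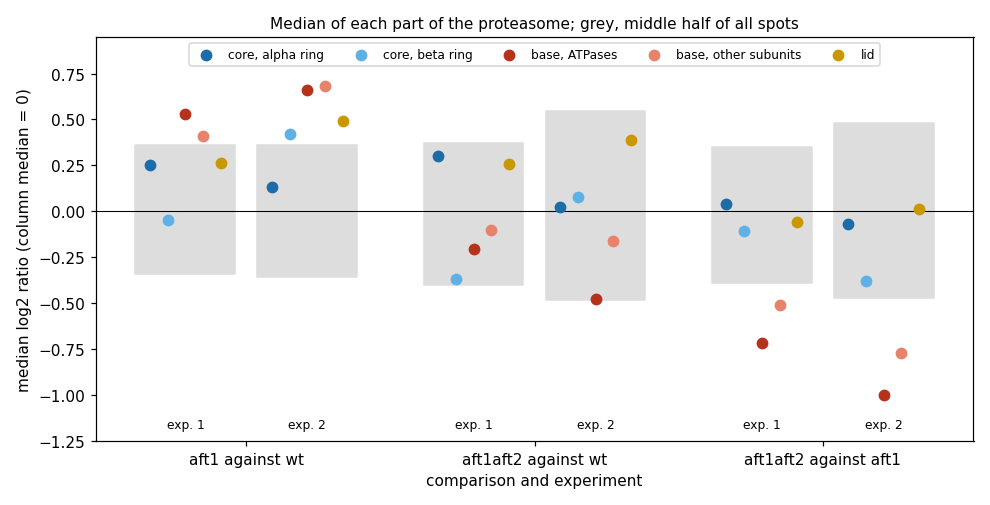
Median log2 ratio of each part of the proteasome (coloured points) in each comparison and experiment, over a grey band from the lower to the upper quartile of all spots. The base ATPases lie above the band in both experiments of aft1 against wt (0.53 and 0.66) and below it in both of aft1aft2 against aft1 (-0.72 and -1.00). The other base subunits do the same (0.41 and 0.68, and -0.51 and -0.77), while the alpha ring stays inside the band throughout.

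In aft1aft2 against aft1 the regulatory particle had medians of -0.54 and -0.47 in experiments 1 and 2, and the core 0.015 and -0.135. The core was therefore higher by 0.555 and 0.335. The difference of the medians of the fitted means was 0.42, and it was 0.229 without aft1 replicate 1 and 0.262 without aft1aft2 replicate 1. The ranges overlapped in both experiments, with 1 core gene above every regulatory gene in each (PUP2 in experiment 1 and PRE2 in experiment 2). Of the 19 regulatory genes 11 were below 0 in both experiments and 5 above, against 33.2% and 33.4% of all spots. Of the 14 core genes 6 were below and 3 above. The rings of the core were not alike: 5 of the 7 beta ring genes were below 0 in both experiments and 1 above, with a median of the means of -0.30, while 1 of the 7 alpha ring genes was below and 2 above, with a median of 0.20. The median of the beta ring was also lower than that of the lid, of which 2 of 8 genes were below and 3 above, with a median of -0.165. By experiment the beta ring had medians of -0.11 and -0.38 and the alpha ring 0.04 and -0.07, all between the quartiles of all spots. These differences between parts were not tested. With the values as deposited 10 regulatory genes were below 0 in both and 5 above, against 19.4% and 49.4% of all spots. At an unadjusted p under 0.05, 8 of the 33 genes were lower and 0 higher, against 13.1% and 9.50% of all spots.

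In the regulatory particle the low values lay mostly in the base. All 6 ATPase genes were below 0 in both experiments, with medians of -0.72 and -1.00. RPT1 was -0.95 and -0.94 (mean -0.94 ± 0.23; limma adjusted p = 0.0924), the closest pair of values of any subunit. RPT6 was -0.62 and -1.27, RPT5 was -0.77 and -1.06, and RPT2 was -0.58 and -1.21. RPT3 was -0.69 and -0.48, and RPT4, with a mean of -0.43 ± 0.42, was -0.74 and -0.12.

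RPN2, for a scaffold subunit of the base, was the lowest of all subunit genes. It was -1.86 in experiment 1 and -1.10 in experiment 2, a mean of -1.48 ± 0.34 or 2.78-fold (limma adjusted p = 0.082; 95% interval -2.30 to -0.66). It passed with no replicate block (limma adjusted p = 0.0324), a fit that counts 3 rather than 2 residual degrees of freedom. Without aft1aft2 replicate 2 the mean was -1.98. Without aft1aft2 replicate 1 the mean was -0.97. RPN1 was -0.54 and -1.14 (mean -0.84 ± 0.26), and RPN10 was -0.48 and -0.44. RPN13 did not share these low values, at 0.04 and 0.48.

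The lid had medians of -0.06 and 0.015. RPN7 was the highest regulatory gene at 0.17 and 0.96 (mean 0.57 ± 0.28), and RPN5 and RPN8 were also at or above 0 in both experiments. RPN3 was the lowest lid gene at -0.25 and -1.38 (mean -0.81 ± 0.32). RPN6 and RPN9 had means of -0.23 and -0.46. RPN11 was -1.00 and 0.59 and RPN12 was -0.59 and 0.33, so both changed sign. RPN14 was 0.08 and 0.54.

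Among core genes PUP1 was the lowest at -1.02 and -0.72 (mean -0.87 ± 0.35), low in both experiments. PUP3, next to it in the beta ring, was -1.00 and -0.02. PRE2 was the highest at 0.19 and 1.24 (mean 0.72 ± 0.48), and -0.081 without aft1aft2 replicate 2. PUP2 was 1.28 and -0.40, PRE10 -0.22 and -0.65, and PRE3 -0.06 and -0.55. PRE1, PRE4, PRE5 and PRE7 had means of -0.04, -0.27, 0.15 and -0.37, and the alpha ring genes SCL1, PRE6, PRE8 and PRE9 had means from -0.03 to 0.31.

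Seen by strain, aft1 had the highest level of the 3 strains in both experiments for 13 of the 33 genes, against 17.2% of all spots, and the lowest for 0, against 16.0%. This ranking rests on the likely order of strains in the ratio: with the other order aft1 would be the lowest strain for these 13 genes and the highest for 0. The 13 were 9 regulatory genes (RPT1, RPT3, RPT5, RPT6, RPN1, RPN2, RPN3, RPN9 and RPN10) and 4 core genes (PRE4, PRE7, PRE10 and PUP3). Of the 10 base genes 7 were among them, and of the 8 lid genes 2. Because the same aft1 hybridisations enter both comparisons, the high values in one and the low values in the other are not separate observations.

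The agreement of the experiments limited what single subunits could show, as it did for spots in general. Across the 33 genes, which are not independent replicates, the experiments correlated with r = 0.382 for aft1 and 0.337 for aft1aft2 against wt, and 0.388 between the mutants. Across all spots these correlations were 0.553, 0.449 and 0.554. The subunits span a narrower range than all spots. The experiments were more than 1 apart for 3 subunits in aft1 against wt (PRE2, PUP2 and RPT4), against 8.60% of all spots. In aft1aft2 against wt this held for 7 (PRE2, PUP1, RPN2, RPN11, RPN12, RPN13 and RPT4), against 19.8%. In aft1aft2 against aft1 it held for 4 (PRE2, PUP2, RPN3 and RPN11), against 13.6%. As shares of the 33 subunits these counts were close to the shares of all spots.

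RPN4, the gene of the shared activator, had high values in both mutants against wt without passing the test. It was 0.42 and 1.21 in aft1 against wt, a mean of 0.82 ± 0.30 (limma adjusted p = 0.265), or 1.76-fold. In aft1aft2 against wt it was 0.61 and 1.48, a mean of 1.04 ± 0.30 (limma adjusted p = 0.118), or 2.06-fold. Between the mutants RPN4 was 0.19 and 0.26 (mean 0.23 ± 0.30, 95% interval -0.49 to 0.95). Without wt replicate 2 the means against wt were 0.401 for aft1 and 0.629 for aft1aft2, and without wt replicate 1 that for aft1 was 1.23. With no replicate block RPN4 passed in aft1aft2 against wt (limma adjusted p = 0.0438). That fit has the same estimates but counts 3 rather than 2 residual degrees of freedom. Its calls over all spots in this comparison went from 270 to 940. For RPN4 both experiments were above 0 in all 3 comparisons, and experiment 2 gave the larger value each time. The comparisons share hybridisations, those of wt in both comparisons with wt, and are not separate observations. Beside these values the subunit medians were 0.30 in aft1 and 0.00 in aft1aft2 against wt.

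Among all spots 1.46% passed in aft1 against wt and 4.44% in aft1aft2 against wt. Of 6 genes that activate RPN4 transcription or help degrade Rpn4, PDR3 alone passed. This zinc cluster activator of drug resistance genes rose by 1.55 ± 0.23 in aft1 against wt (1.57 and 1.53; limma adjusted p = 0.0348) and by 1.91 ± 0.23 in aft1aft2 against wt (1.88 and 1.94; limma adjusted p = 0.014). The first call was lost without either wt or aft1 hybridisation and when only the comparison's own ratios were fitted (limma adjusted p from 0.0579 to 0.439). Between the mutants PDR3 was 0.35 ± 0.23 and did not pass. Its relative PDR1 had means of 0.17, 0.13 and -0.04. YAP1, for an oxidative stress activator, was -0.87 and 1.24 in aft1 against wt, and HSF1, for the heat shock activator, 0.08 and 0.43. HSF1 was the lowest of the list in the remaining comparisons, at 0.07 ± 0.25 and -0.19 ± 0.25. UBR2 and MUB1, for the ligase pair that marks Rpn4 for degradation, had means from -0.10 to 0.38 over the comparisons.

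**Figure D3:**
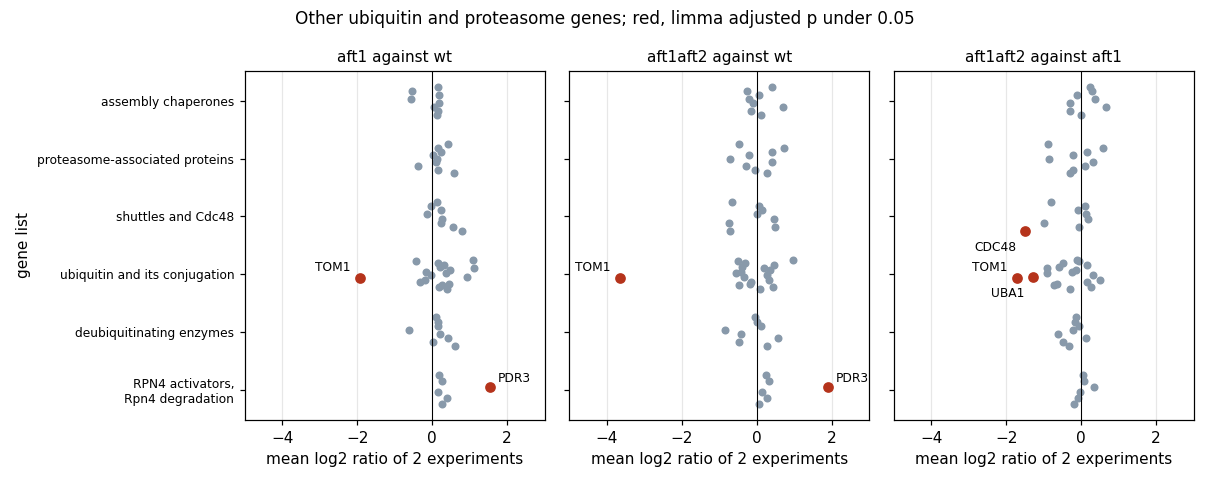
Mean log2 ratio of the 2 experiments for genes of the ubiquitin and proteasome pathway outside the name rule, by list (rows) and comparison (panels); each point is a spot and red points passed limma's test. TOM1 is red in all 3 panels, PDR3 in both panels against wt, and CDC48 and UBA1 in aft1aft2 against aft1 alone.

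The 56 other genes of the pathway found on the membranes stood on 57 spots. Of these, 1 rose and 1 fell in each comparison with wt, while 0 rose and 3 fell between the mutants. Of all 6084 spots, 51 rose and 38 fell in aft1 against wt, and 44 rose and 226 fell in aft1aft2 against wt. Between the mutants 14 of all spots rose and 158 fell. The shares of all spots called in either direction are those given above for the subunits. The median of the 57 spots was 0.17 for aft1 and 0.06 for aft1aft2 against wt, and -0.12 between the mutants, where that of all spots was 0.01, 0.02 and 0.03.

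UBA1 and CDC48 passed in aft1aft2 against aft1. UBA1 encodes the ubiquitin-activating enzyme that starts every conjugation. It was 0.89 and 0.99 in aft1 against wt (mean 0.94 ± 0.23, not past the test) and had a mean of -0.33 ± 0.23 in aft1aft2 against wt. It fell to -1.27 ± 0.23 in aft1aft2 against aft1 (-1.20 and -1.35; limma adjusted p = 0.0471). CDC48 encodes the ATPase that extracts tagged proteins for the proteasome. It was 1.00 and 0.58 in aft1 against wt (mean 0.79 ± 0.25, not past the test) and had a mean of -0.70 ± 0.25 in aft1aft2 against wt. It fell to -1.49 ± 0.25 in aft1aft2 against aft1 (-1.77 and -1.22; limma adjusted p = 0.0404). Neither call held without centring (limma adjusted p = 0.123 for UBA1 and 0.128 for CDC48), with levels quantile normalised (0.0524 for each) or with the comparison's own ratios (0.0831 and 0.0692). CDC48 also lost it without any single aft1 or aft1aft2 hybridisation (0.0511 to 0.325). UBA1 lost it without either aft1 hybridisation or aft1aft2 replicate 2 (0.101 to 0.546).

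TOM1, which encodes a large ubiquitin ligase, was the lowest of these genes in every comparison. It fell to -1.94 ± 0.25 in aft1 against wt (-2.16 and -1.72; limma adjusted p = 0.0266), to -3.66 ± 0.25 in aft1aft2 against wt (-3.67 and -3.65; limma adjusted p = 0.00284) and to -1.72 ± 0.25 in aft1aft2 against aft1 (-1.51 and -1.94; limma adjusted p = 0.0246). Without centring, the calls in aft1 against wt and between the mutants were lost (limma adjusted p = 0.0545 and 0.0802), and the call in aft1aft2 against wt was kept in every setting tried. The call in aft1 against wt was also lost with the comparison's own ratios (0.0524) and without any single wt or aft1 hybridisation (0.0533 to 0.335). The call between the mutants was also lost with levels quantile normalised (0.0579) and without either aft1 hybridisation or aft1aft2 replicate 2 (0.0642 to 0.402). Among the other conjugation genes UFD4 and UBC6 had the highest means in aft1 against wt, 1.10 ± 0.32 and 1.11 ± 0.34, neither past the test. UFD4 was the highest in aft1aft2 against wt at 0.97 ± 0.32 and SSM4 in aft1aft2 against aft1 at 0.52 ± 0.28, neither past the test.

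The 8 assembly chaperone genes outside the name rule had medians of 0.14, -0.02 and 0.12 in the 3 comparisons, with 0 past the test in each. NAS6 and POC4 were the lowest in aft1 against wt at -0.56 ± 0.26 and -0.54 ± 0.27, and NAS2 the highest at 0.19 ± 0.29. In aft1aft2 against wt and against aft1 IRC25 was the highest at 0.71 ± 0.33 and 0.67 ± 0.33, and the lowest were POC4 at -0.25 ± 0.27 and HSM3 at -0.30 ± 0.23. UMP1, for the chaperone of core maturation, was 0.17, 0.41 and 0.24.

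Of 9 listed genes for proteasome-associated proteins 8 were found, on 9 spots, and 0 passed. BLM10, for an alternative cap of the core, stood on 2 spots at 0.59 ± 0.24 and 0.16 ± 0.23 in aft1 against wt, the higher of them the highest of this list. CIC1 was the lowest there at -0.37 ± 0.26. In aft1aft2 against wt STS1 was the highest at 0.73 ± 0.26 and FUB1 the lowest at -0.72 ± 0.28. In aft1aft2 against aft1 the deubiquitinating enzyme gene UBP6 was the lowest at -0.89 ± 0.52, from -1.92 and 0.13, and STS1 the highest at 0.58 ± 0.26.

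Of the other genes for ubiquitin shuttles and the Cdc48 complex, DSK2 was 0.24 ± 0.24 for aft1 and -0.75 ± 0.24 for aft1aft2 against wt and -1.00 ± 0.24 in aft1aft2 against aft1, none past the test. DDI1, for another shuttle, was the highest of this list in aft1aft2 against wt at 0.49 ± 0.25. RAD23, for the shuttle best known beside Dsk2, had means of -0.13, 0.01 and 0.14. UFD1 and NPL4, for the partners of Cdc48, were -0.04 and 0.26 in aft1 against wt and 0.11 and 0.20 in aft1aft2 against aft1. None of the 8 genes for deubiquitinating enzymes passed, and their medians were 0.16, -0.02 and -0.19. UBP15 was the lowest of them in both comparisons with wt, at -0.61 ± 0.39 and -0.83 ± 0.39, and UBP14 was the lowest in aft1aft2 against aft1 at -0.63 ± 0.26. The highest were DOA4 in aft1 against wt at 0.60 ± 0.33 and UBP1 in the remaining comparisons at 0.56 ± 0.26 and 0.14 ± 0.26.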

How the data were processed

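Each sample's column, as deposited by the authors, holds a log ratio for every spot, used here as log2 because no base is named. Per the labels, 5 µg of total RNA from growing cells was copied and hybridised to nylon membranes, which were exposed for 3 days and quantified with PATHWAYS 3. Normalisation, genome build and the order of strains in the ratio were not given in the sources used here. In all, the table had 6084 spots, 0 missing values and 0 unused columns; 5523 spots had 1 gene symbol in the platform annotation, 0 several and 561 none. Within an experiment the 3 ratios closed to 0.01 at all 6084 spots, so they carry 3 shared hybridisations. Their column medians, turned to mutant minus reference, were 0.09 to 0.625 and were set to 0. Levels of the 3 strains in each experiment were obtained by least squares. A linear model with terms for strain and experiment was then fitted in limma 3.58.1 (R 4.3.3), two-sided, with 2 residual degrees of freedom and a prior of 4.25. The fit was tested on simulated data.

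The experiment number in the titles pairs the samples, since the ratios of an experiment share hybridisations, and the experiment was a term of the fit. Same-numbered levels sum to 0 within an experiment, so a correlation of their deviations says nothing of the pairing. The members and gene lists were chosen with earlier results of these data known. Named in full were RPN4, the extremes of the core and the regulatory particle in each comparison, and, of other lists, genes past the test with each list's extremes; further subunits are described for their role. The lists are described by counts and medians, with no test. Precision is limited by the number of membranes. The alternatives were values as deposited, scaled columns, quantile normalised levels, the comparison's own ratios, no replicate block, leaving out RPN14 or each hybridisation, and the first spot of a symbol. SEM1, the listed gene of the proteasome-associated proteins that was not found by its symbol, was not analysed here. The 8 lid genes are those that the name rule matched.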

Additional observations from a re-analysis of the deposited data

How the results depend on the processing

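Medians of the subunits moved with centring, as those of all spots do. With the values as deposited they were 0.565 for aft1 and 0.515 for aft1aft2 against wt and -0.015 between the mutants, where all spots had 0.268, 0.539 and 0.28. The core minus regulatory difference in aft1aft2 against wt, 0.031, had the opposite sign with columns scaled (-0.002) or levels quantile normalised (-0.006) and was 0.046 without RPN14. Leaving out each hybridisation, the differences ran from -0.399 to -0.239, from -0.077 to 0.09 and from 0.229 to 0.459 in the 3 comparisons. The subunit medians then ran from 0.175 to 0.379, from -0.081 to 0.134 and from -0.268 to -0.189.

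The number of subunits past the test was 0 in each comparison, and 0 to 1 with a hybridisation left out of aft1aft2 against wt (RPN13) or aft1aft2 against aft1 (RPN2). With columns scaled or levels quantile normalised 1 subunit passed in aft1aft2 against wt, RPN13. With no replicate block 1, 3 and 6 subunits passed. Since levels sum to 0 within an experiment, that fit has the same estimates and counts 3 rather than 2 residual degrees of freedom, and its number of calls over all spots went from 89 to 590, from 270 to 940 and from 172 to 950. As deposited the calls over all spots were 58, 72 and 52, with columns scaled 217, 266 and 211, and with the comparison's own ratios 44, 157 and 112. With a hybridisation left out they ran from 4 to 233, from 75 to 559 and from 13 to 503. Neither RPN4 nor any subunit passed in the main fit, so there was no call there whose direction could change. No subunit had more than 1 spot, so taking the first spot changed nothing. The cause of these shifts was not tested.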
